A study of Homo sapiens with 12 samples.

Results

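High glucose was compared with control glucose in human brain microvascular endothelial cells whose glucose transporter Glut1 had been suppressed with an siRNA. The members are the 6 samples labelled siGlut1, of 12 in the series: 3 in high glucose (siGlut1 high 1, 2 and 3) and 3 in control medium (siGlut1 control 1, 2 and 3). The cells came from a commercial supplier, grew in that supplier's complete medium and carried the siRNA for 48 h. Both siGlut1 groups carry the same siRNA, so the only labelled difference between them is the glucose. The other 6 samples carry a non-silencing siRNA in the same media and serve here as the reference for the effect of glucose. Neither the glucose concentration nor how long it was applied is given in the labels, nor whether an osmotic control such as mannitol was used.

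Brain endothelial cells line the vessels of the blood-brain barrier, and Glut1, encoded by SLC2A1, is the main route by which glucose enters them. Glucose that enters can be burnt in glycolysis or diverted into the polyol and hexosamine pathways, and it induces TXNIP and ARRDC4 through the sensor MondoA. Glucose outside the cell also raises the osmolarity of the medium, to which cells answer through NFAT5 by taking up organic osmolytes such as inositol and taurine. A culture with less Glut1 therefore asks which transcripts still follow the glucose of the medium.

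Counts over genes totalled 45382006 to 90496628 in the 6 siGlut1 libraries and 40114460 to 90496628 over the 11 libraries used. One column of the series, non-silencing high 2, averaged non-silencing high 1 and 3 and was left out, so that group has n = 2 and each other group has n = 3. Levels are given in CPM, counts scaled to a common library size after TMM. Differences are log2 fold changes of high over control glucose. Unless another test is named, edgeR's quasi-likelihood test over 14324 genes gave the p-values, adjusted by Benjamini-Hochberg where so called, with a threshold of 0.05. Nothing in the labels ties a replicate to its own culture, and the p-values therefore reflect variation among these libraries that may be purely technical. The median standard error of a gene's log2 fold change was 0.12.

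Markers of the labelled cell type were present in every library. The 28 endothelial identity genes summed to 11910 to 14880 CPM in the control and 12362 to 15000.2 CPM in the high group, among them PECAM1, CDH5 and VWF. SLC2A1, the siRNA's target, was at 8.56, 9.05 and 6.26 CPM in siGlut1 control 1, 2 and 3 and at 7.09, 7.19 and 6.38 CPM in siGlut1 high 1, 2 and 3. These groups overlapped (-0.22 ± 0.13 SE, adjusted p = 0.458, and -0.36 without siGlut1 control 3), and all 6 values lay below the 20.7 to 25.7 CPM of the non-silencing libraries. The lower level of Glut1 transcript was thus shared by both media, and the comparison below is between cells that all had it.

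siGlut1 control 3 stood apart from its group. Its root mean square distance on log2 CPM from the other 2 libraries of its group was 0.451, against 0.301 to 0.364 for the other 5 siGlut1 libraries. On the first principal component of the 6 libraries, which held 33.2% of the variance, it scored 28.0, while siGlut1 control 1 and 2 scored -21.0 and -22.3 and the high libraries -11.4, 19.7 and 6.94. That component does not part the media. The second component, with 28.8%, does: the control libraries scored -4.47, -21.7 and -22.0 and the high libraries 27.2, 15.8 and 5.16, without overlap. siGlut1 control 3 thus differed from its group mainly along an axis on which high 1 and high 2 also differed from each other. Several results below are given with and without siGlut1 control 3. The same distance was 0.356, 0.437 and 0.475 in non-silencing control 1, 2 and 3. siGlut1 control 3 was thus not the most distant library of the series.

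**Figure D1:**
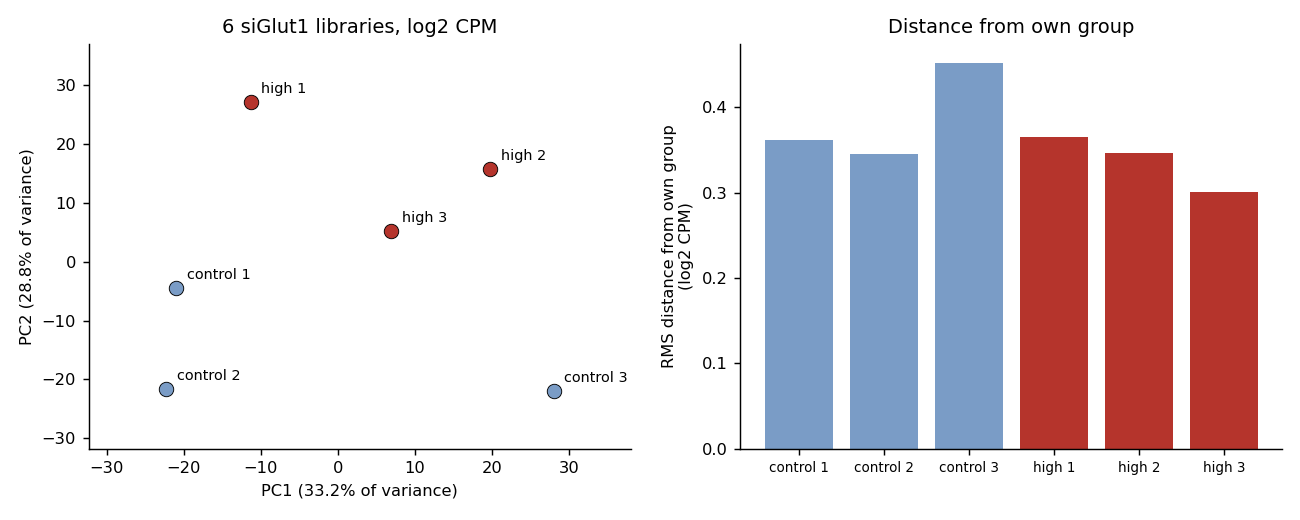
Left, the 6 siGlut1 libraries on the first 2 principal components of log2 CPM; right, each library's root mean square distance from the other libraries of its group (bars, log2 CPM). siGlut1 control 3 lies at 28.0 on the first component and has the largest of the 6 distances, 0.451, while the media part on the second component.

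Of 14324 genes tested, 2 passed the threshold between high and control glucose in siGlut1 cells (0.014%), both higher in high glucose and none lower (0%). ABI3BP, which encodes an extracellular matrix protein that binds the ABI3 SH3 domain (hg19 chromosome 3, 100468179 to 100712334), was at 55.4, 44.7 and 50.7 CPM in control 1, 2 and 3. In high 1, 2 and 3 it was at 97.8, 97.7 and 85.3 CPM. All 3 high libraries lay far above all 3 controls, and the means were 50.3 ± 5.33 and 93.6 ± 7.22 CPM (SD, n = 3 each). ABI3BP rose 1.86-fold (0.90 ± 0.10 SE, adjusted p = 0.0217, edgeR). MCTP1, a calcium-binding protein of the endoplasmic reticulum and vesicles with C2 domains (hg19 chromosome 5, 94042289 to 94620279), was at 97.9, 87.0 and 99.3 CPM in the controls and at 136, 137 and 142 CPM in high glucose. Within each medium the libraries of MCTP1 lay close together, with means of 94.7 ± 6.75 and 139 ± 3.19 CPM (SD, n = 3 each). MCTP1 rose 1.46-fold (0.55 ± 0.07 SE, adjusted p = 0.0217, edgeR).

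Both calls were narrow ones in this test. Leaving out any one library other than non-silencing control 2 or 3 ended them, with adjusted p-values of up to 0.148, while the log2 fold change of ABI3BP stayed between 0.83 and 0.98 and that of MCTP1 between 0.50 and 0.58. The count of calls also depended on the tool and the libraries: DESeq2 called 432 genes (283 higher and 149 lower), and edgeR called 734 (396 higher and 338 lower) when both control-glucose replicates numbered 3 were left out. It called 17 without non-silencing control 3 alone and 0 without siGlut1 control 3 alone.

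A broader layer of small differences lay below the threshold. In edgeR 2176 genes had an unadjusted p under 0.05 (15.2%), 1139 higher (7.95%) and 1037 lower (7.24%). The 3 high libraries lay above the 3 controls without overlap for 1555 genes (10.9%) and below them for 1675 (11.7%). Most differences were small: 214 of 14324 genes differed by more than 1 on the log2 scale, and the median size was 0.14. Over all genes 46.6% of the log2 fold changes were positive, the share to set beside the counts of positive or negative members below. With non-silencing siRNA the same test gave 0 calls, and 774 genes (5.4%) had an unadjusted p under 0.05, 312 higher (2.18%) and 462 lower (3.23%), from 2 libraries against 3. There 1234 genes lay higher without overlap (8.61%) and 1322 lower (9.23%).

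Beside ABI3BP and MCTP1, the 8 genes higher in high glucose with the lowest p included HSPA2, TLL1, SLC5A3, LOX, TEX15, PGAP1 and MYO6, all with an adjusted p of 0.123 in edgeR and therefore not called. HSPA2, a chaperone of the HSP70 family, was at 3.22, 3.65 and 3.52 CPM in the controls and at 6.42, 5.37 and 5.94 CPM in high glucose (0.77 ± 0.12 SE). TLL1, a secreted protease related to BMP1 that processes procollagens, was at 52.6, 47.9 and 47.1 CPM and at 88.4, 73.5 and 81.6 CPM (0.72 ± 0.11 SE). For both genes the groups were apart, which the rule that ranked these genes required. LOX, the lysyl oxidase that cross-links collagen and elastin, was at 64.0, 61.4 and 57.7 CPM and at 84.0, 74.3 and 84.1 CPM (0.41 ± 0.07 SE). PGAP1, which remodels GPI anchors, and MYO6, a motor that walks to the minus end of actin, had log2 fold changes of 0.62 and 0.42, and the germ cell gene TEX15 had 0.98. Those of PGAP1 and MYO6 were 0.39 and 0.25 once each library's trend on gene length was removed. With trends on length and GC content both removed, PGAP1 came to 0.24, MYO6 to 0.14, LOX to 0.25 and TEX15 to 0.63.

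The 10 lower genes with the lowest p were RPLP2, GPCPD1, LOXL1, CERS4, CEBPB, RPLP1, RPL36, RPL13, GSTZ1 and SDSL, with adjusted p-values of 0.123 to 0.13. LOXL1, another lysyl oxidase, needed for elastic fibres, was at 7.30, 8.59 and 7.44 CPM in the controls and at 4.46, 4.65 and 5.21 CPM in high glucose (-0.70 ± 0.12 SE), opposite in sign to LOX. GPCPD1, which cleaves glycerophosphocholine, was at 13.6, 14.3 and 13.8 CPM and at 9.76, 10.4 and 10.2 CPM (-0.45 ± 0.08 SE). Neither gene overlapped between the groups, which the same rule required. CERS4, a ceramide synthase, was at 3.18, 3.65 and 2.78 CPM and at 1.92, 1.69 and 1.57 CPM (-0.90 ± 0.16 SE). CEBPB, a transcription factor of the inflammatory and integrated stress responses, had -0.75, and the enzymes GSTZ1 and SDSL of amino acid breakdown had -0.48 and -0.71. With the trends on length and GC content removed, LOXL1, CEBPB and SDSL came to -0.38, -0.44 and -0.46, and CERS4 kept a value within 1.5 times of that above.

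All 20 of these genes pointed the same way with non-silencing siRNA, whose libraries are not in the siGlut1 contrast but are in the same fit. For 18 of the 20 the non-silencing groups did not overlap either, where 17.8% of all genes did not. ABI3BP, for example, was at 59.1, 56.2 and 49.0 CPM in non-silencing control 1, 2 and 3 and at 69.0 and 80.4 CPM in non-silencing high 1 and 3 (0.45 ± 0.12 SE). MCTP1 was at 76.7, 79.2 and 77.4 CPM there and at 108 and 113 CPM in high glucose (0.50), close to its siGlut1 value. In edgeR 14 of the 20 had an unadjusted p under 0.05 with non-silencing siRNA, where 5.4% of all genes did. The 20 were ranked by p from the joint fit, so a small spread among the non-silencing libraries favoured their choice. The 18 and the 14 are therefore no independent check. Across all 14324 genes the log2 fold changes of the 2 siRNAs had a Spearman's rho of 0.43, a description over genes, which are not replicates. Control libraries of the same number may still share variation between the siRNAs. In siGlut1 control 1, 2 and 3 the 35 mitosis genes below summed to 1752, 1357 and 2053 CPM. In non-silencing control 1, 2 and 3 they summed to 2225, 1628 and 2506 CPM. The 40 interferon-stimulated genes ran differently, at 5984, 6500 and 7090 CPM and at 3431, 3702 and 3080 CPM. How far shared variation entered the agreement was not tested. The interaction, which asks whether the effect of glucose differs between the siRNAs, called 0 genes, with 394 (2.75%) at an unadjusted p under 0.05 (edgeR), 268 of them positive (1.87%) and 126 negative (0.88%). DESeq2 also called 0. The difference between siRNAs was 0.45 for ABI3BP and 0.05 for MCTP1 (adjusted p = 0.999 for both, edgeR).

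**Figure D2:**
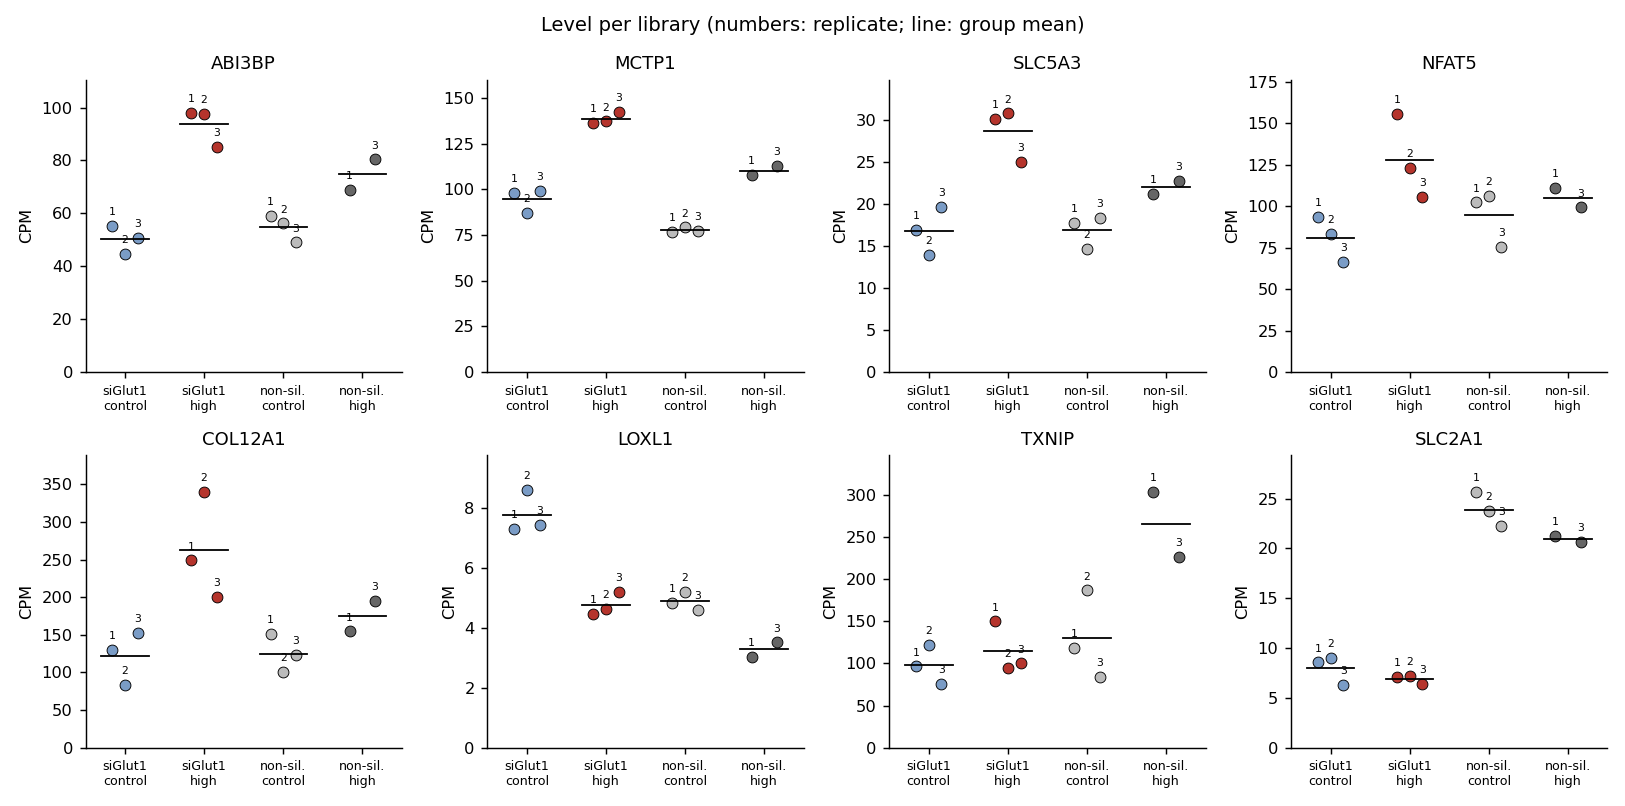
Level in CPM (vertical axes, from 0) of 8 genes in each of the 11 libraries, with the replicate number above each point and a line at the group mean. ABI3BP, MCTP1, SLC5A3, NFAT5 and COL12A1 were higher and LOXL1 lower in all siGlut1 high libraries than in all siGlut1 controls, whereas the siGlut1 groups overlapped for TXNIP and SLC2A1.

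Genes of osmolyte uptake were among those higher in every high library. Of 9 tested genes of the NFAT5 osmotic response, 4 were higher at an unadjusted p under 0.05 in edgeR, where 7.95% of all genes were. The same 4 lay higher without overlap, where 10.9% of all genes did. The median of the list was 0.23 against -0.02 for all genes. None of the 4 passed the adjusted threshold, and DESeq2 called all 4, where it called 283 of all 14322 genes higher. SLC5A3, the sodium-coupled transporter of myo-inositol, was at 16.9, 13.9 and 19.7 CPM in the controls and at 30.1, 30.8 and 25.1 CPM in high glucose (0.77 ± 0.13 SE, adjusted p = 0.123). NFAT5, the transcription factor that drives this response, was at 93.7, 83.0 and 66.3 CPM and at 156, 123 and 106 CPM (0.66 ± 0.17 SE, adjusted p = 0.158). SLC6A6, the taurine transporter, was at 53.1, 55.2 and 44.4 CPM and at 73.0, 62.5 and 61.5 CPM (0.37 ± 0.10 SE, adjusted p = 0.176). SLC38A2, an amino acid transporter named here after its values were seen, was at 571, 527 and 512 CPM and at 750.3, 653 and 671 CPM (0.37 ± 0.07 SE, adjusted p = 0.123). In each of these 4 genes every high library exceeded every control. The groups overlapped for the other 5 members. SGK1, a kinase induced by hypertonicity, had 0.23, or 0.35 without siGlut1 control 3, and AKR1B1, the aldose reductase that makes sorbitol, had 0.04. The water channel AQP1, named here for being the lowest of the list, had -0.73 (adjusted p = 0.488) at 1.27 to 3.44 CPM. Without siGlut1 control 2 AQP1 was at -0.46 and the median of the list was 0.11. All 4 genes have long transcripts, and with the trends on length and GC content removed NFAT5 was at 0.27, SLC5A3 at 0.42 and SLC38A2 at 0.22. With non-silencing siRNA the values were 0.38 for SLC5A3, 0.31 for SLC6A6, 0.27 for SLC38A2 and 0.15 for NFAT5.

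TXNIP and ARRDC4, which follow glucose inside the cell, looked different. TXNIP, which restrains glucose uptake and is the best known glucose-induced transcript, was at 96.4, 122 and 75.8 CPM in the siGlut1 controls and at 149.8, 94.6 and 100.04 CPM in siGlut1 high glucose. The groups overlapped (0.23 ± 0.28 SE, adjusted p = 0.733), and the value was -0.0092 without siGlut1 high 1. With non-silencing siRNA TXNIP was at 119, 187 and 83.9 CPM in control medium and at 304 and 226 CPM in high glucose (1.03, adjusted p = 0.777). Its relative ARRDC4 was at 0.652, 0.994 and 1.70 CPM in the siGlut1 controls and at 1.25, 1.03 and 1.20 CPM in siGlut1 high glucose (0.07), against 1.16 with non-silencing siRNA. The difference between siRNAs was -0.81 for TXNIP and -1.09 for ARRDC4, and neither passed (adjusted p = 0.999 for both, edgeR). Of the 12 MondoA and ChREBP genes tested, 0 passed the threshold and the median was 0.00. With non-silencing siRNA the median of the list was 0.0067, so the list as a whole did not differ there either.

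Enzymes that use glucose differed little. The 20 tested genes of glycolysis had a median of 0.00, with 9 positive, and ranged from -0.21 to 0.18. With the GC trend removed the median was 0.08 and 18 of the 20 were positive. Removing both trends, on length and GC content, gave the same median and count. In edgeR 2 of the 20 had an unadjusted p under 0.05 in the higher direction, among them HK1, the housekeeping hexokinase (0.17), and 0 in the lower. Of all genes 7.95% were higher and 7.24% lower at that level, so the count of 2 lay near the share of all genes. PFKFB3, which makes the activator of phosphofructokinase, had 0.12 and LDHA had 0.18, or 0.29 without siGlut1 control 3, both short of the threshold. In the hexosamine pathway GFPT1, the rate-limiting enzyme, was at 86.7, 78.5 and 81.6 CPM in the controls and at 109, 107 and 101 CPM in high glucose (0.36 ± 0.07 SE, adjusted p = 0.13), without overlap. OGT, which transfers the pathway's product onto proteins, had 0.14, whereas GNPDA1 and NAGK, which work in the direction of breakdown or salvage, had -0.19 and -0.18. Of 10 genes in this list 7 were positive (median 0.13), and the median was 0.03 with the GC trend removed and 0.00 with both trends removed. OGT and NAGK then came to 0.02 and -0.08. GFPT1 came to 0.20 with the length trend removed, and 0.09 with GC content removed as well. Among the other hexose transporters SLC2A13, a proton-coupled inositol transporter, was at 4.40, 4.62 and 4.61 CPM and at 6.71, 6.09 and 5.96 CPM (0.46). SLC2A12 had 0.26, SLC2A3 -0.14, SLC2A6 -0.32 and SLC2A8 -0.32, and none of the 10 tested passed. With the GC trend removed SLC2A6 and SLC2A8 were at -0.07 and -0.10, and with both trends removed SLC2A12 and SLC2A13 were at 0.11 and 0.21.

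The difference between the media followed gene length. Across 14324 genes the log2 fold change and the length given in the deposited table had a Spearman's rho of 0.38 in siGlut1 cells and 0.04 with non-silencing siRNA, a description over genes. In quintiles of genes from the shortest to the longest the median log2 fold change with siGlut1 was -0.12, -0.06, -0.02, 0.03 and 0.13. With non-silencing siRNA all 5 medians lay between -0.03 and -0.01. In the shortest quintile, of median length 1224 bases, 2.13% of genes were higher without overlap and 22.6% lower. In the longest quintile, of median length 6793 bases, 26.3% were higher and 3.28% lower. Genomic span in place of transcript length gave a rho of 0.36 in siGlut1 cells and 0.12 with non-silencing siRNA.

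The libraries behind this trend were not alike. The slope of a library's deviation from the mean of the 6 siGlut1 libraries, per doubling of length, was 0.082, 0.035 and 0.0071 in high 1, 2 and 3. In control 1, 2 and 3 it was 0.013, -0.064 and -0.072. High 3 lay below control 1, so the groups overlapped, and the mean slopes were 0.041 ± 0.038 and -0.041 ± 0.047 (SD, n = 3 each; exact permutation test, two-sided, p = 0.2, where the smallest possible p is 0.1). Without siGlut1 control 3 the difference in slope was 0.067 in place of 0.082 (exact permutation p = 0.3) and rho was 0.28. The glucose effect on the slope was 0.0061 with non-silencing siRNA, and the difference between the siRNAs was not shown (0.076, exact permutation p = 0.185).

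**Figure D3:**
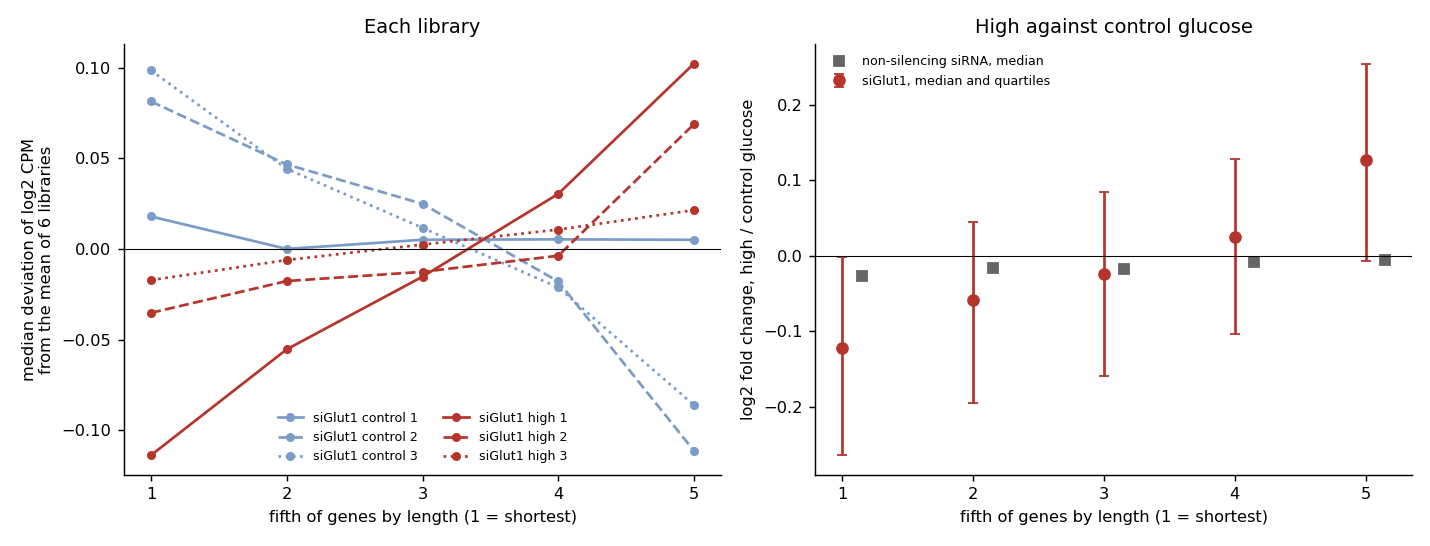
Left, for each siGlut1 library the median deviation of log2 CPM from the mean of the 6 libraries, in quintiles of genes by length; right, the median log2 fold change of high over control glucose per quintile, with quartiles as bars for siGlut1 and squares for non-silencing siRNA. The siGlut1 medians climb from -0.12 in the shortest to 0.13 in the longest quintile, and high 1 and control 2 and 3 have the steepest lines.

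GC content gave a second trend of the same kind. Over 13687 genes with a reference transcript the rho of log2 fold change with the GC content of that transcript was -0.52 in siGlut1 cells and -0.35 with non-silencing siRNA. From the quintile lowest in GC content to the highest the siGlut1 medians were 0.12, 0.05, 0.00, -0.08 and -0.18. The slope per 10 percentage points of GC was -0.11, -0.073 and -0.027 in high 1, 2 and 3, and 0.05, 0.145 and 0.014 in control 1, 2 and 3. Here the groups did not overlap, which gives the smallest p that 3 against 3 libraries allow (exact permutation test, two-sided, p = 0.1). With non-silencing siRNA the same test gave p = 0.4 (exact permutation). Length and GC content were only weakly related (rho -0.22), and length kept a rho of 0.34 with GC content held constant. ABI3BP had 0.82 and MCTP1 0.47 with both trends removed, but neither then passed (adjusted p = 0.082, edgeR). Removing the length trend alone left 1446 genes with an unadjusted p under 0.05 in edgeR, and removing both left 1325. How far library preparation and how far the cells contributed to the 2 trends was not tested.

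Ribosomal protein genes differed in one direction throughout. They encode the protein part of the cytosolic ribosome, are short and highly transcribed, and most of their messages start with a run of pyrimidines through which growth signals control their translation. All 75 tested members had a negative log2 fold change in high glucose, between -0.45 and -0.11, with a median of -0.25. In edgeR 67 of the 75 had an unadjusted p under 0.05, where 7.24% of all genes did in that direction, and 69 lay lower without overlap, where 11.7% did. None passed the adjusted threshold. DESeq2 called 35 lower, where it called 149 of all 14322 genes lower. Without both control-glucose replicates numbered 3 edgeR called 26 lower, where it called 338 of all 14226 genes lower. The summed level of the 75 genes was 65551, 67953 and 64720 CPM in siGlut1 control 1, 2 and 3 and 54548, 54618 and 58005 CPM in high 1, 2 and 3. Each high library was thus below each control, siGlut1 control 3 included. With non-silencing siRNA the sums were 62889, 68331 and 63747 CPM in control and 61411 and 60802 CPM in high glucose, with a median of -0.08.

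The start regions of the 4 ribosomal protein genes among the 10 lower genes above, and of RPLP0, the stalk protein that carries RPLP1 and RPLP2, are shown because they carry the pyrimidine run that marks this group. Each is 15 bases before and 15 after an annotated start in RefSeq (GRCh38.p14, gene strand), that is the end of the promoter and the start of exon 1, with the run of C and T from the start in capitals.
RPLP2, chr11:809952-809981, plus strand: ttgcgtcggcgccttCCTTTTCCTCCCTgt
RPLP1, chr15:69452803-69452832, plus strand: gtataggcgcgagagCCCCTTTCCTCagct
RPL36, chr19:5690280-5690309, plus strand: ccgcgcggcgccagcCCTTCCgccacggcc
RPL13, chr16:89560667-89560696, plus strand: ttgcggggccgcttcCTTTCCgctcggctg
RPLP0, chr12:120201097-120201126, minus strand: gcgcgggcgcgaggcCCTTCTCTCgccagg
Of the 75 genes, 61 matched the RefSeq table by symbol. A C at an annotated start followed by at least 4 further C or T on the gene strand was found for 45 of the 61 (73.8%). The same was found for 687 of 9808 other tested genes (7.0%), so these letters describe the group and are not specific to it. Where a gene had several annotated starts, the one with the longest run is shown.

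RPLP2, one of the acidic stalk proteins, was at 520.2, 575 and 485 CPM in the controls and at 362, 392 and 405 CPM in high glucose (-0.45 ± 0.07 SE, adjusted p = 0.123, edgeR). Its partner RPLP1 was at 1157, 1273 and 1098 CPM and at 839, 854 and 939.9 CPM (-0.42 ± 0.08 SE). RPLP0 was at 2446, 2665 and 2450 CPM and at 2157, 2093 and 2317 CPM (-0.20 ± 0.08 SE). The stalk genes thus all lay lower without overlap. RPL36 and RPL13, of the large subunit, had -0.41 and -0.38, and RPL5, which carries 5S RNA, had -0.19. With both trends removed RPLP2 came to -0.12, RPL36 to -0.07, RPLP1 to -0.27 and RPLP0 to -0.07. These genes are short, with a median length of 741 bases against 1224 for the shortest quintile of all genes. With the length trend removed the median of the list was -0.11, with length and GC trends removed -0.10, and with the GC trend alone removed -0.25. Ribosomal protein genes have many processed pseudogenes that share their reads, so values of single members are uncertain.

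Nuclear genes of the respiratory chain were mostly lower too. Of 55 tested members 51 were negative (median -0.16). In edgeR 24 had an unadjusted p under 0.05 in the lower direction and 1 in the higher, where 7.24% and 7.95% of all genes did, and 31 lay lower without overlap, where 11.7% did. COX5B, a subunit of complex IV, was at 74.5, 86.2 and 76.3 CPM in the controls and at 59.5, 61.3 and 58.7 CPM in high glucose (-0.40). UQCRQ, of complex III, was at 67.4, 68.2 and 66.4 CPM and at 49.4, 56.2 and 59.5 CPM (-0.29). COX4I1 had -0.17, and the longer NDUFS1, the largest subunit of complex I, had 0.14. With the length trend removed the median of the list was 0.01, with COX5B at -0.21, UQCRQ at -0.19 and COX4I1 at -0.01. The TCA cycle and pyruvate dehydrogenase list had a median of 0.02 over 31 genes.

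Genes of antigen presentation by MHC class I were lower as a list. All 12 tested members were negative, between -0.76 and -0.13, with a median of -0.37. In edgeR 8 of 12 had an unadjusted p under 0.05, where 7.24% of all genes did in that direction, and 5 lay lower without overlap, where 11.7% did, but 0 passed the adjusted threshold. HLA-B, a presenting heavy chain, was at 389.5, 458 and 376 CPM in the controls and at 243, 313 and 186 CPM in high glucose (-0.72 ± 0.20 SE, adjusted p = 0.176). B2M, the shared light chain, was at 1605, 1679 and 1567 CPM and at 1406, 1411 and 1154 CPM (-0.29 ± 0.10 SE, adjusted p = 0.237). PSMB9, a subunit of the immunoproteasome, was at 17.4, 17.6 and 18.5 CPM and at 11.1, 17.0 and 8.31 CPM (-0.56). HLA-F had -0.76, PSMB8 -0.38 and TAP1, a subunit of the peptide transporter, -0.37. The summed level was 3975, 4320 and 3636 CPM in the controls and 3254, 3341 and 2737 CPM in high glucose, so each high library lay below each control. With both trends removed the median of the list was -0.24, and TAP1 also had -0.24. B2M was at -0.14 with the length trend removed. HLA heavy chains are near-identical in parts, and the counting may have split their reads.

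Interferon-stimulated genes, which share regulators with MHC class I, varied between the libraries of high glucose. Of 40 tested members 37 were negative (median -0.33, and -0.27 with non-silencing siRNA). In edgeR 7 had an unadjusted p under 0.05, all lower, where 7.24% of all genes did. Without overlap 7 of the 40 lay lower, where 11.7% of all genes did, and 0 higher. Their summed level was 5984, 6500 and 7090 CPM in siGlut1 control 1, 2 and 3 and 4793, 6806 and 4318 CPM in high 1, 2 and 3. siGlut1 high 2 thus lay within the controls, and the other 2 high libraries lay below them. MX1, an antiviral GTPase, was at 307, 376 and 441 CPM and at 224, 428 and 189 CPM (-0.42 ± 0.27 SE). ISG15, a ubiquitin-like protein, was at 249.7, 293 and 365 CPM and at 145, 309 and 165 CPM (-0.55 ± 0.24 SE). IFITM3, which blocks viral entry, was at 663, 692 and 671 CPM and at 497, 596 and 495 CPM (-0.35 ± 0.08 SE, adjusted p = 0.137), without overlap, although it came to -0.09 with both trends removed. ISG15 came to -0.20 with both trends removed. IFI6 had -0.60, or -0.37 with both trends removed, MX2 had -0.70, and IFIT1 had -0.33, or -0.04 without siGlut1 control 3. Without siGlut1 high 2 the median of the list was -0.53, without high 3 -0.16 and without siGlut1 control 3 -0.19. All 6 libraries of siGlut1 exceeded the 2643 to 3702 CPM summed in the non-silencing libraries.

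NF-kB targets and stress transcription factors were lower more often than higher. Of 30 tested NF-kB targets 25 were negative (median -0.34, and -0.26 with non-silencing siRNA). In edgeR 8 had an unadjusted p under 0.05, all lower, where 7.24% of all genes did. Without overlap 5 of the 30 lay lower, where 11.7% of all genes did, and 0 higher. RELB, a subunit of the non-canonical pathway, was at 15.4, 22.1 and 14.4 CPM in the controls and at 11.4, 11.2 and 7.82 CPM in high glucose (-0.78 ± 0.20 SE, adjusted p = 0.158, and -0.48 with the GC trend removed). TNFAIP3, a feedback inhibitor, had -0.43, the transcription factor IRF1 -0.33 and NFKB2 -0.35, or -0.12 with the GC trend removed. The adhesion molecules that recruit leukocytes overlapped between the groups. SELE, E-selectin, was at 6.97, 16.9 and 2.0 CPM and at 8.30, 2.44 and 1.53 CPM, and its value of -1.14 became -0.17 without siGlut1 control 2. ICAM1 was at 70.2, 103 and 51.4 CPM and at 75.2, 51.8 and 45.1 CPM (-0.39, and -0.08 without that library). Without siGlut1 control 2 the list's median was -0.17.

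In the integrated stress response, which ATF4 drives when amino acids run short or proteins misfold, 18 of 21 tested genes were negative (median -0.22). The median was -0.12 with the GC trend removed and -0.09 with both trends removed. In edgeR 10 had an unadjusted p under 0.05 in the lower direction and 1 in the higher, where 7.24% and 7.95% of all genes did. Without overlap 7 of the 21 lay lower and 1 higher, where 11.7% and 10.9% of all genes did. DDIT4, an inhibitor of mTORC1, was at 82.6, 113 and 68.2 CPM in the controls and at 61.6, 50.0 and 55.7 CPM in high glucose (-0.66 ± 0.21 SE, adjusted p = 0.208, and -0.43 without siGlut1 control 2). ATF4 itself was at 245, 246 and 248 CPM and at 210.4, 217 and 225 CPM (-0.18, and -0.02 with both trends removed). ATF5 had -0.38, DDIT3 -0.45, ASNS -0.37 and PPP1R15A, which restarts translation, -0.25. DDIT3 was at -0.22 without siGlut1 control 3, and with both trends removed ATF5 was at -0.18 and PPP1R15A at -0.08. The exception was SLC7A11, the cystine transporter, at 161, 136 and 170.0 CPM and at 209, 228 and 193 CPM (0.43, adjusted p = 0.176), which was 0.24 with the length trend removed and 0.10 with both trends removed. With non-silencing siRNA the median of the list was also -0.22. SLC7A11 also counts among the 23 tested NRF2 targets, whose median was 0.01. There the iron store FTL had -0.30 and the autophagy receptor SQSTM1 -0.38, both lower without overlap, and -0.06 and -0.25 with both trends removed. In the list of superoxide handling, CYBA, a subunit of NADPH oxidase, was at 21.4, 22.7 and 20.2 CPM and at 12.9, 15.6 and 15.3 CPM (-0.55, adjusted p = 0.176, and -0.24 with both trends removed).

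**Figure D4:**
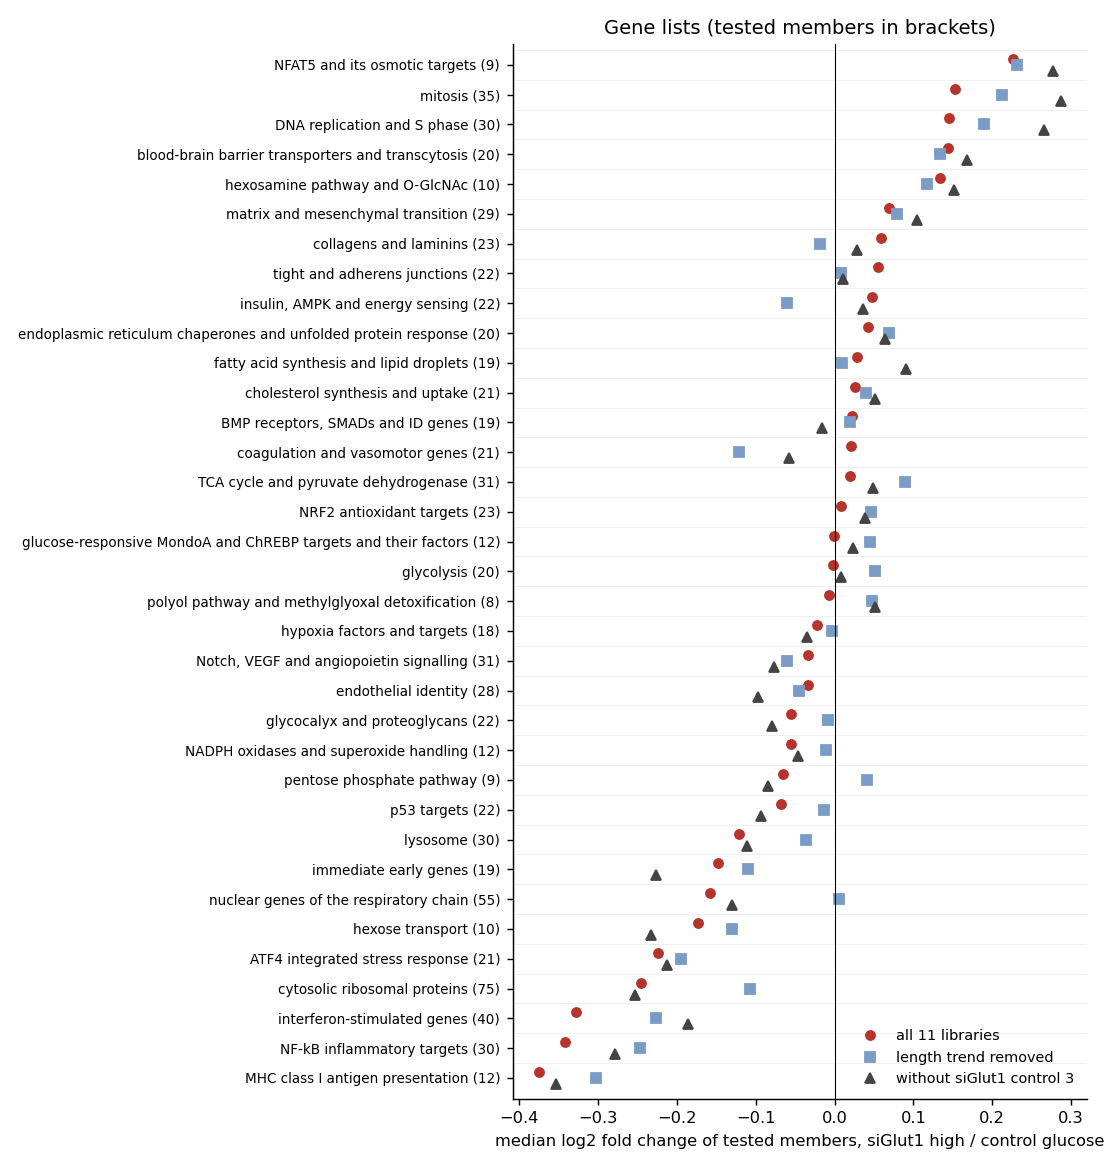
Median log2 fold change of high over control glucose in siGlut1 cells for the tested members of 35 gene lists (horizontal axis), with all 11 libraries (circles), with the length trend removed (squares) and without siGlut1 control 3 (triangles). With all 11 libraries the MHC class I, NF-kB and interferon lists lie lowest and the osmotic list highest, an order that differs without siGlut1 control 3, and the respiratory chain moves from -0.16 to 0.01 when the length trend is removed.

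Genes of the cell cycle leaned the other way. Of 35 tested mitosis genes 33 were positive (median 0.15), as were 26 of 30 genes of DNA replication (median 0.14). In edgeR 4 mitosis genes and 0 replication genes had an unadjusted p under 0.05, where 7.95% of all genes did in that direction, and none passed the threshold. Without overlap 4 mitosis genes and 1 replication gene lay higher, where 10.9% of all genes did. MKI67, the proliferation marker Ki-67, was at 106, 62.4 and 111 CPM in the controls and at 138, 175 and 113 CPM in high glucose (0.61 ± 0.22 SE, adjusted p = 0.247). The spindle and kinetochore genes ASPM and CENPF had 0.61 and 0.57, and TOP2A had 0.28 with overlapping groups, or 0.46 without siGlut1 control 3. The lean of both lists changed with single libraries. The summed level of the mitosis genes was 1752, 1357 and 2053 CPM in the controls and 1884, 2278 and 1875 CPM in high glucose, so siGlut1 control 3 exceeded 2 of the 3 high libraries. The median of the mitosis list was 0.29 without siGlut1 control 3, 0.05 without control 2 and 0.08 without high 2. Of its 35 members 35, 22 and 26 were then positive. The median of the replication list was 0.27 without siGlut1 control 3 and ranged down to 0.05 over single libraries left out. MKI67, CENPF and ASPM are also long, with 0.34, 0.28 and 0.28 once both trends were removed. The list medians did not shrink in this way. With both trends removed the mitosis median was 0.17, with 35 of 35 positive. The replication median was then also 0.17, with 29 of 30 positive.

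**Figure D5:**
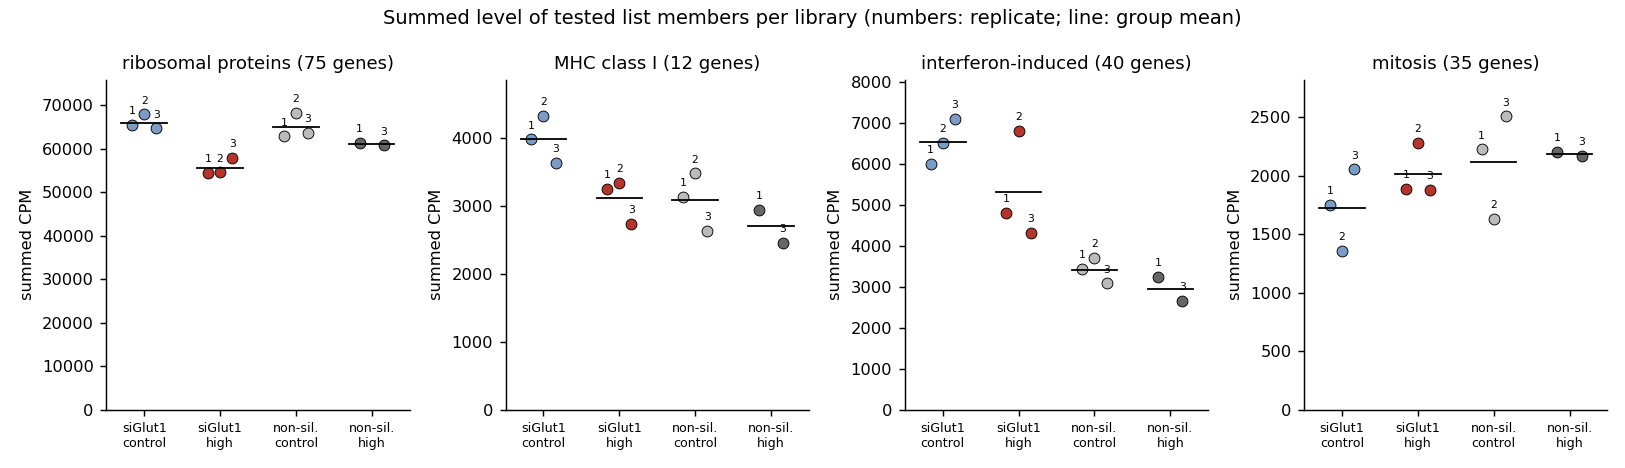
Summed CPM of the tested members of 4 gene lists in each of the 11 libraries (vertical axes, from 0), with the replicate number above each point and a line at the group mean. Ribosomal protein and MHC class I sums part the siGlut1 media without overlap, whereas siGlut1 high 2 lies among the controls for interferon-stimulated genes and siGlut1 control 3 among the high libraries for mitosis.

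Single matrix genes had large values in both directions, though none passed the threshold. COL12A1, a fibril-associated collagen, was at 129.6, 83.9 and 152 CPM in the controls and at 248.9, 340.2 and 200.1 CPM in high glucose (1.11 ± 0.24 SE, adjusted p = 0.137). VCAN, the proteoglycan versican, was at 76.2, 54.3 and 33.6 CPM and at 159, 104 and 100.1 CPM (1.14 ± 0.35 SE, adjusted p = 0.196). COL8A1, a short-chain collagen of vessel walls, was at 93.3, 91.5 and 74.1 CPM and at 135, 137 and 123 CPM (0.61 ± 0.15 SE, adjusted p = 0.148). For these 3 genes the media did not overlap, and both trends removed left the values within 1.5 times. TGFB2, a growth factor that promotes matrix, had 0.59, and FN1, fibronectin, had 0.44 with overlapping groups, or 0.19 with both trends removed. In the other direction the basement membrane linker NID2 was at 9.30, 9.87 and 6.22 CPM and at 5.67, 5.65 and 4.94 CPM (-0.65 ± 0.18 SE, adjusted p = 0.172), and COL6A1 had -0.59, or -0.34 with the GC trend removed. Of 23 tested collagens, laminins and linkers 3 were higher and 2 lower at an unadjusted p under 0.05 in edgeR, where 7.95% and 7.24% of all genes were. The median was 0.06, and 0.03 without siGlut1 control 3. COL8A1, NID2 and TGFB2 had 0.60, -0.82 and 0.52 with non-silencing siRNA, and COL12A1 and VCAN had 0.48 and 0.37.

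Genes of the barrier and of vascular signalling gave single differences rather than lists. CLDN5, the main claudin of brain endothelium, was at 99.5, 137 and 74.1 CPM in the controls and at 59.7, 57.3 and 64.6 CPM in high glucose (-0.78 ± 0.28 SE, adjusted p = 0.244). Its control values spread widely, and the log2 fold change was -0.51 without siGlut1 control 2 and also -0.51 with the GC trend removed. OCLN, occludin, was at 2.90, 3.16 and 2.83 CPM and at 3.84, 3.89 and 3.92 CPM (0.39 ± 0.12 SE, adjusted p = 0.196), opposite to CLDN5, and 0.19 with both trends removed. Over 22 junction genes the median was 0.06 (0.01 without siGlut1 control 3), and over 20 barrier transporters and transcytosis genes it was 0.14. CAV1, the coat protein of caveolae, had 0.26 without overlap, and the efflux pumps ABCB1 and ABCG2 had 0.37 and -0.36 with overlapping groups, or 0.63 and -0.55 without siGlut1 control 3. ANGPT2, an antagonist of the Tie2 receptor that loosens vessels, was at 122, 98.0 and 121 CPM and at 171, 173 and 173 CPM (0.60 ± 0.17 SE, adjusted p = 0.176). BMPR2, a BMP receptor, was at 218, 178 and 185 CPM and at 306, 272 and 243 CPM (0.50, adjusted p = 0.123), and ID3, a target of BMP signalling, had -0.25. With non-silencing siRNA BMPR2 had -0.02, and the difference between siRNAs had an adjusted p of 0.999 in edgeR. With both trends removed BMPR2 came to 0.13 and ID3 to -0.05. FLT1, a VEGF receptor with a very long transcript, had 0.34, and 0.05 with both trends removed. Immediate early genes were mostly negative, 16 of 19 with a median of -0.15 (-0.23 without siGlut1 control 3 and -0.03 with both trends removed), JUNB having -0.66, or -0.33 with both trends removed. Cholesterol synthesis, fatty acid synthesis, hypoxia, chaperone, glycocalyx and p53 lists had medians between -0.07 and 0.04.

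Among markers of other cell types only the pericyte and smooth muscle list parted the media. Its summed level, from 6 of 10 markers tested, came to 1517 to 1623 CPM in the controls and 1705 to 2045 CPM in high glucose, nearly all of it from RGS5 (0.27, adjusted p = 0.197), while the defining markers KCNJ8 and DES had 0 to 8 counts per library. With both trends removed RGS5 was at 0.01, and its part in the results above was not tested. The sums of the other lists overlapped between the media. Fibroblast markers summed to 14.1 to 36.5 and 19.4 to 41.3 CPM, and DPT was at 0 in all 6 libraries. Epithelial markers, 5 of 7 tested, summed to 347 to 436 and 319 to 389 CPM, with the untested CDH1 and KRT5 at 0. The log2 fold changes of the 5 ran from -0.53 to 0.33. Astrocyte markers summed to 379.9 to 394 and 357 to 445 CPM, almost all from GJA1, with AQP4 at 0. Microglial and leukocyte markers summed to 47.0 to 73.1 and 48.5 to 60.6 CPM, almost all from CD68, with P2RY12 and ITGAM at 0. Neuronal and oligodendrocyte markers, 4 of 8 tested, summed to 73.5 to 85.2 and 84.6 to 89.7 CPM, with the untested OLIG2 at 0. The log2 fold changes of the 4 ran from -0.21 to 0.31. Lymphatic markers, 3 of 5 tested, summed to 210.3 to 244 and 145 to 235 CPM, with the untested PDPN and CCL21 at 0. Those of the 3 ran from -0.28 to 0.46. In bulk RNA a lower level in every cell and fewer cells that carry the transcript cannot be told apart.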

How the data were processed

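The deposited table holds, per the file headers, hg19 coordinates, gene lengths, and a count column and an RPKM column per sample. The counts deposited by the authors are whole numbers per gene, not normalised, and all were even in the 11 columns used. The RPKM values deposited by the authors were not used for tests. Per the submitters' processing notes the build was hg19 and DESeq2 was used, with no versions. An aligner, counter, strand setting or annotation was not given in the sources used here, so reads of overlapping antisense genes cannot be told apart. Per the labels' protocols RNA was isolated on columns and 2 library kits are named, without saying which served which library. Of the deposited lengths 35.1% are multiples of 3, so they are not coding lengths alone. Of 12 columns 11 were used, since non-silencing high 2 averages non-silencing high 1 and 3, and 0 columns had no sample in the labels.

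Of 23398 entries, 124 on the Y chromosome or named XIST were left out. For the other 23274, edgeR 4.0.16 under R 4.3.3 was used: filterByExpr left 14324 genes, libraries were scaled by TMM, and the 4 groups were fitted together with 7 residual degrees of freedom and no block on replicate. Tests were two-sided with Benjamini-Hochberg adjustment. The standard error is the log2 fold change over the square root of F. Trends on length or GC content (the longest GENCODE transcript per symbol, for 95.6% of genes) were removed by loess offsets per library, with a span of 0.5. DESeq2 1.42.0, other scalings and filters, a replicate block and each library left out in turn were tried as alternatives. The fit was tested on simulated data.

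The members and gene lists were chosen with earlier results of these data known, and offsets for GC content were added after the data were seen. Lists are described by counts and medians, with no test of the list. Named were SLC2A1, genes past the threshold, filled to 10 per direction by lowest p among genes with a mean of at least 2 CPM and no overlap, and up to 4 marked genes per list. Of the marked genes those that show the range of a list are given singly, and the remainder stand within its counts. Members without a mark were named after their values were seen: SLC38A2, SLC2A8, SLC2A12, SLC2A13, RELB, HLA-F, PSMB8, PSMB9, CENPF, ASPM, COX5B, UQCRQ, DDIT4, ATF5, PPP1R15A, SLC7A11, FTL, SQSTM1, TGFB2, COL12A1, COL8A1, COL6A1, NID2, VCAN, BMPR2, FLT1, JUNB, HK1, GNPDA1, NAGK, IRF1, IFITM3, IFI6 and RGS5. Some items that the rule or the lists would name are not reported here.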

Additional observations from a re-analysis of the deposited data

How the results depend on the processing

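The 2 calls in siGlut1 cells were unchanged in number with DESeq2's size factors, upper quartile scaling, no filter on low counts, a stricter filter and the length trend removed. There were 0 calls with a log2 fold change of at least 1 required, with only the groups compared in the fit, with the GC trend removed and with the length and GC trends removed (the last 2 chosen after seeing the data). DESeq2 called 432, all 12 columns gave 37, and leaving out both control-glucose replicates 3 gave 734. With non-silencing siRNA these 3 settings gave 33, 11 and 48 calls against 0. The causes of these shifts were not tested. Leaving out 1 library at a time gave 0 to 17 calls with siGlut1, 0 to 2 with non-silencing siRNA and a rho of the length trend between 0.284 and 0.425, lowest without siGlut1 control 3. The interaction had 0 calls under each alternative run.

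Replicate numbers did not pair the siGlut1 control with the siGlut1 high libraries. For the same number, their deviations from the group means had correlations of 0.239, -0.250 and 0.102. Not every library correlated best with its own number. Same-numbered libraries of the 2 siRNAs were not compared in this way. A replicate block gave 3 calls in place of 2 and a rho of 0.381, and the block with the length trend removed gave 0 calls with siGlut1 and 1 with non-silencing siRNA.

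Of the genes named, TXNIP ranged from -0.0092 to 0.42 with 1 library left out, negative without siGlut1 high 1. ARRDC4 ranged from -0.19 to 0.47, negative without siGlut1 control 1 and, at -0.01, without control 2. At 3 libraries a group and a median standard error of 0.12, small differences of single genes were not detectable.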
